A study of Mus musculus with 2 samples.

Results

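The genes described here are the ligands, receptors and latent binders of transforming growth factor beta (TGF-beta) in mouse bone mesenchymal cells. They were taken by symbol and number 10 of the 27998 genes in the deposited count tables. The 3 ligands are Tgfb1, Tgfb2 and Tgfb3, the 3 receptors are Tgfbr1, Tgfbr2 and Tgfbr3, and the 4 latent TGF-beta binding proteins are Ltbp1, Ltbp2, Ltbp3 and Ltbp4. All 10 had at least 1 unique molecular identifier (UMI), the tag that marks 1 captured mRNA molecule, in each library.

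TGF-beta is secreted as a latent complex in which the mature ligand stays bound to its own propeptide. A latent binding protein ties this complex to the extracellular matrix, and bone matrix is a large store of it. Release of the ligand by integrins, proteases or acid lets it bind the type II receptor Tgfbr2, which recruits and phosphorylates the type I receptor Tgfbr1, and this kinase then activates SMAD proteins. Tgfbr3, or betaglycan, is a co-receptor without a kinase that presents ligand, Tgfb2 in particular, to the signaling receptors. In bone, TGF-beta released during resorption is known to recruit mesenchymal progenitors and to restrain late osteoblast maturation.

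The study asked how teriparatide, the N-terminal fragment of parathyroid hormone (PTH) that stimulates bone formation, acts on progenitors marked by Gli1. Both libraries came from Gli1-CreERT2;Ai9 mice of a mixed background at 1 month of age, in which tamoxifen turns on the red protein tdTomato in cells that express Gli1 and in their descendants. All mice received tamoxifen on 3 days and then 3 daily injections of vehicle or of teriparatide at 400 ng per g of body weight. Cells freed from the femoral metaphysis, with the growth plate discarded, were sorted as tdTomato+ and negative for CD31, CD45 and Ter119, and 1 library of 3′ single-cell RNA was made per condition. By the study's methods both groups had the same number of mice and the same majority of males, and whether the mice of a group were pooled is not stated. Values are given in the order vehicle, teriparatide wherever a pair stands without further names. Because there was 1 library per condition, no comparison of the conditions has a replicate check or a test, and every interval in parentheses is a 95% interval for counting error only. The label passes to all descendants, so it does not separate progenitors from their progeny.

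The vehicle library held 1286 barcodes and 10567335 UMIs, and the teriparatide library 2142 barcodes and 26270041 UMIs. Mitochondrial UMIs were over the limit of 10% in 55.8% and 40.2% of barcodes. In all, 549 and 1217 cells passed the limits on genes and mitochondrial UMIs, and 423 and 603 remained after clusters of blood cells were removed, although the sort had been gated against CD45 and Ter119. The libraries shared 2 barcodes, 1 of them among the cells that passed. The mesenchymal clusters were named from markers. Osteoblast-like (OB-like) cells numbered 113 after vehicle and 129 after teriparatide, preosteoblast-like (preOB-like) cells 60 and 53, chondrocyte-like osteoprogenitor-like (COP-like) cells 66 and 264, and marrow adipogenic lineage progenitor-like (MALP-like) cells 125 and 80. Neither the 10 genes nor the markers were used to form the clusters. The naming used these markers, so their levels are a description. Among the 4 classes, the summed markers of each were highest in that class in both libraries, with the COP markers at 44274 and 45935 counts per 1000000 UMIs (CPM) in COP-like cells and at most 695 CPM in the other 3 classes. The few hypertrophic chondrocyte-like cells, kept apart from the 4 classes, held COP markers at 45681 and 41181 CPM. The preOB-like cells also held 1939 and 1874 CPM of mural cell markers, with Rgs5 and Acta2 among their leading genes. Cells with a Y-linked transcript made up 52.6% of the mesenchymal cells with a sex call in the vehicle library and 90% in the teriparatide library, so sex and treatment moved together although the groups had the same sex makeup. The 5 neutrophil markers were also at higher summed CPM with teriparatide in every class, at 8 and 175 CPM in OB-like, 88.2 and 207 CPM in preOB-like, 11.6 and 129 CPM in COP-like and 66.6 and 208 CPM in MALP-like cells, and their part in the ratios below was not tested. Endothelial markers summed to at most 9.96 CPM.

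A cAMP response element is the DNA site bound by CREB, the factor that protein kinase A activates after cAMP rises, and the PTH receptor raises cAMP. The reference promoters of the members were therefore searched for it. RefSeq promoters on GRCm38.p6 were on hand for 8 of the 10 members, in 12 entries, with none for Tgfb3 and Tgfbr3. In the 250 bases before the start, the full palindrome TGACGTCA was found in 1 of the 12 entries, the upstream promoter of Ltbp1, against 1.55% of all 32851 promoters. The core TGACG, read on either strand and also part of the palindrome, was found in 2 of the 12, Ltbp1 and Tgfb2, against 17.8% of all promoters. The TATA box TATAAA, searched on both strands, was found in 1 of the 12, that of Tgfb2, against 12.4%. The first of the following stretches is chr1:186705990-186706239 on the minus strand and the second chr17:75005279-75005528 on the plus strand, both printed from 5′ to 3′ on the strand of the gene with the matches in capitals. They are shown because Tgfb2 and Ltbp1 were the members with a match.
Tgfb2: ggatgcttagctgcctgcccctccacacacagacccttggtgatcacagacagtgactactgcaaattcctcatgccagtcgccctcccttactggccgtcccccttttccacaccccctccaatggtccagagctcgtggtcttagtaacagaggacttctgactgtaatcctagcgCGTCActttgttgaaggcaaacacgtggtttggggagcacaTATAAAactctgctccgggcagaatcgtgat
Ltbp1: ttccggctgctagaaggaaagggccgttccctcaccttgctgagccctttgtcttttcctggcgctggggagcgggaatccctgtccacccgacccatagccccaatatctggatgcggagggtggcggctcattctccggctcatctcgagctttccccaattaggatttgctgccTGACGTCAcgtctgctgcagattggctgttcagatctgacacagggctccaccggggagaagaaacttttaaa
In Tgfb2 the core began 72 bases and the TATA box 31 bases before the start. In Ltbp1 the palindrome began 73 bases before the start. These are RefSeq starts, and the Ltbp1 stretch ends at 75005528, short of the gene start of 75005568 given below. A match of letters is no evidence of binding, and the counts below hold no measurement at these sites.

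Each ligand was highest in another class. Tgfb1 was highest in OB-like cells, Tgfb2 in COP-like cells and Tgfb3 in preOB-like cells, in each of the libraries. Tgfb1 (ENSMUSG00000002603, chromosome 7 from 25687002 to 25705077, plus strand, GRCm38), the main ligand of bone matrix, had a level of 152 CPM (137 to 169) in OB-like cells after vehicle and of 218 CPM (201 to 235) after teriparatide. In preOB-like cells it was 96.7 CPM (75.1 to 123) and 151 CPM (124 to 182), in COP-like cells 70.1 CPM (58.5 to 83.4) and 55.9 CPM (50.9 to 61.4), and in MALP-like cells 47.7 CPM (37.7 to 59.5) and 35.9 CPM (25.7 to 48.6). The order OB, preOB, COP, MALP was thus the same in both libraries. In the vehicle library, however, the COP-like interval overlapped both the preOB-like and the MALP-like interval.

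Tgfb2 (ENSMUSG00000039239, chromosome 1 from 186622792 to 186705989, minus strand), a ligand with low affinity for Tgfbr2 in the absence of betaglycan, was nearly missing from OB-like cells, with 7 and 9 UMIs, or 2.95 CPM (1.19 to 6.07) and 3.11 CPM (1.42 to 5.90). COP-like cells held 135 CPM (118 to 153) and 107 CPM (100 to 115) of it. The preOB-like cells came next with 83.9 CPM (63.9 to 108) and 72.1 CPM (54.0 to 94.4), and MALP-like cells held 40.3 CPM (31.2 to 51.3) and 64.7 CPM (50.8 to 81.2). The lead of COP-like over preOB-like cells was 1.61-fold after vehicle and 1.49-fold after teriparatide. A counted gene on the opposite strand, Gm29491, overlaps Tgfb2.

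Tgfb3 (ENSMUSG00000021253, chromosome 12 from 86056745 to 86079041, minus strand, overlapping Ttll5 on the other strand) hardly differed between the libraries in preOB-like cells, where it was 96.7 CPM (75.1 to 123) and 95.3 CPM (74.3 to 120), a log2 ratio of -0.02 (-0.52 to 0.48). Its second place went to MALP-like cells in the vehicle library, at 59.9 CPM (48.6 to 73.0), where the preOB-like lead was 1.62-fold. In the teriparatide library MALP-like cells held 26.2 CPM (17.7 to 37.5), level with 26.6 CPM (23.2 to 30.5) in COP-like and 25.5 CPM (20.1 to 32.1) in OB-like cells, and the preOB-like lead was 3.58-fold.

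The receptors were spread differently from one another. The type I receptor Tgfbr1 (ENSMUSG00000007613, chromosome 4 from 47353222 to 47414931, plus strand) varied least, from 19.3 CPM in COP-like to 38.4 CPM in preOB-like cells of the vehicle library and from 16.3 CPM in COP-like to 33.2 CPM in MALP-like cells of the teriparatide library. Its highest class differed between the libraries, and the leads of 1.26-fold and 1.23-fold over the next class were within counting error. The type II receptor Tgfbr2 (ENSMUSG00000032440, chromosome 9 from 116084293 to 116175360, minus strand) had 154 CPM (136 to 173) and 110 CPM (103 to 118) in COP-like cells. MALP-like cells followed with 49.5 CPM (39.3 to 61.5) and 63.8 CPM (50 to 80.3), so that the lead was 3.1-fold after vehicle and 1.73-fold after teriparatide. OB-like cells held 31.6 CPM (24.8 to 39.6) and 32.4 CPM (26.2 to 39.7), against, in preOB-like cells, 41.3 CPM (27.6 to 59.2) and 39.5 CPM (26.4 to 56.7), so that these classes did not differ beyond counting error.

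The co-receptor Tgfbr3 (ENSMUSG00000029287, chromosome 5 from 107106570 to 107289629, minus strand) was highest in MALP-like cells. There it reached 470 CPM (438 to 505) after vehicle and 564 CPM (521 to 609) after teriparatide, 4.19-fold and 3.70-fold over preOB-like cells, which held 112 CPM (89.0 to 140) and 152 CPM (126 to 183). COP-like cells held 57.4 CPM (46.9 to 69.6) and 118 CPM (110 to 125), and OB-like cells only 5 and 25 UMIs, or 2.11 CPM (0.684 to 4.91) and 8.63 CPM (5.58 to 12.7). A Tgfbr3 UMI was found in 98.4% and 97.5% of MALP-like cells. After each cell was thinned to 3400 UMIs, with 2 and 1 shallower cells left out, the shares were 78.0% (69.7 to 85.0) and 81.0% (70.6 to 89.0). Erythroid-like cells, which should lack it, showed a UMI in 5.88% and 2.38% of cells, and in 0% and 0.741% after thinning, which left out 18 and 33 cells. The median depth was 12721 and 14117 UMIs in MALP-like and 9189 and 10449 UMIs in erythroid-like cells.

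Of the latent binders, Ltbp1 and Ltbp2 shared the MALP-like peak with Tgfbr3 among the 4 classes. Ltbp1 (ENSMUSG00000001870, chromosome 17 from 75005568 to 75392512, plus strand), which binds the latent complex of every ligand and ties it to fibrillin and fibronectin, had 293 CPM (267 to 320) and 257 CPM (229 to 288) in MALP-like cells, 2.24-fold and 2.03-fold over preOB-like cells at 131 CPM (105 to 160) and 127 CPM (102 to 155). OB-like cells held 24.0 CPM (18.2 to 31.1) and 27.6 CPM (21.9 to 34.4). It was lowest in COP-like cells, with 10 and 22 UMIs, or 5.52 CPM (2.65 to 10.2) and 2.75 CPM (1.72 to 4.17).

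Ltbp2 (ENSMUSG00000002020, chromosome 12 from 84783212 to 84876532, minus strand, overlapping D030025P21Rik on the other strand) is a family member that binds fibrillin but not latent TGF-beta. It had 159 CPM (141 to 180) and 105 CPM (87.0 to 125) in MALP-like cells, 2.61-fold and 3.35-fold over preOB-like cells at 61.2 CPM (44.3 to 82.4) and 31.3 CPM (19.8 to 47.0). OB-like cells had 0 UMIs of it in both libraries. Against a floor of 3 counts per library, which is 1.26 and 1.04 CPM there, Ltbp2 was at least 126-fold higher in MALP-like than in OB-like cells after vehicle and at least 101-fold higher after teriparatide. COP-like cells held 4 and 44 UMIs.

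Ltbp3 (ENSMUSG00000024940, chromosome 19 from 5740904 to 5758532, plus strand), a binder of the Tgfb1 latent complex, was the broadest of the 4. Its level was 125 CPM (100 to 154) and 116 CPM (92.4 to 143) in preOB-like and 119 CPM (102 to 136) and 131 CPM (111 to 154) in MALP-like cells, which changed places between the libraries within counting error. Ltbp4 (ENSMUSG00000040488, chromosome 7 from 27305136 to 27337692, minus strand) was barely captured, with 17 and 40 UMIs in all barcodes. Its symbol stands for 2 identifiers in the tables, the other without a UMI, so its counts are uncertain. The preOB-like cells held 8 of the 14 vehicle and 12 of the 30 teriparatide UMIs of Ltbp4 in the 4 classes.

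Among the 9 members with at least 50 UMIs over the 4 classes, Tgfbr3, Ltbp1 and Ltbp2 were at least 2-fold over each other class in both libraries. All 3 were so in MALP-like cells. Of all 11130 genes with at least 50 UMIs over the 4 classes, 3.67% stood out in this way in MALP-like cells. None of these 9 members did so in OB-like, preOB-like or COP-like cells, where 1.56%, 0.836% and 5.53% of all genes did. Ltbp4, below that minimum, was 6.76-fold and 9.34-fold over the next class in preOB-like cells, from 8 and 12 UMIs. Of the 9 members, 7 had the same highest class in both libraries, and the exceptions were Tgfbr1 and Ltbp3. The share of all genes that kept their highest class was not computed, so nothing is read from this count.

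**Figure D1:**
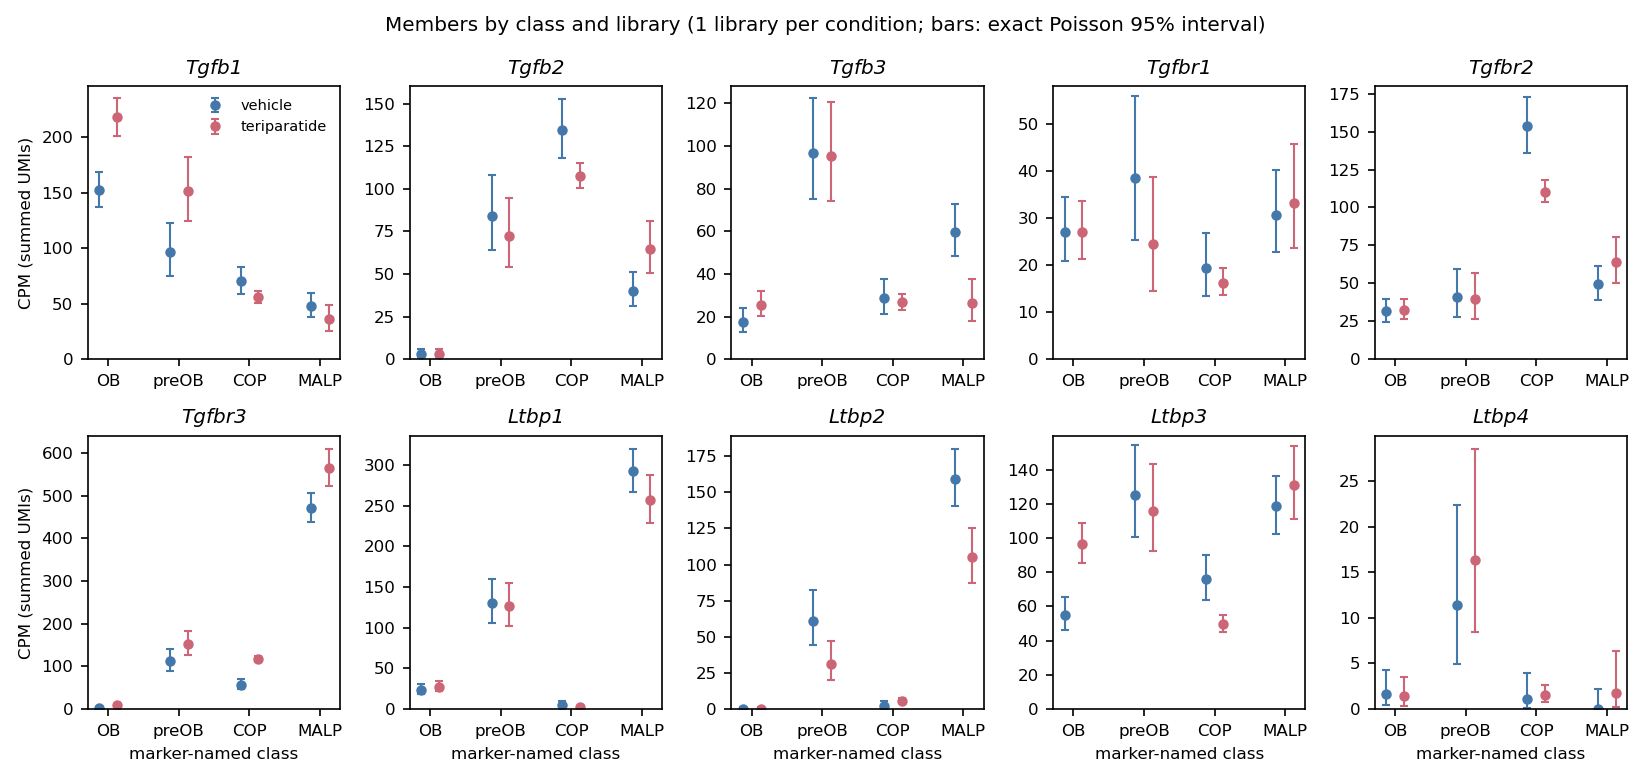
CPM of each member (UMIs of the gene per 1000000 UMIs of the class) in the 4 classes, with 1 point per library and exact Poisson 95% intervals as bars, vehicle in blue and teriparatide in red. Tgfbr3, Ltbp1 and Ltbp2 peak in MALP-like cells of both libraries, Tgfb2 is near 0 in OB-like cells at 2.95 and 3.11 CPM, and Tgfbr2 is highest in COP-like cells at 154 and 110 CPM.

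The comparison of the 2 libraries asked which members differed after teriparatide within a class. A member was called when its CPM differed by at least 1.5-fold and it had at least 50 UMIs in the class over both libraries, a minimum that 30 of the 40 pairs of member and class passed. Of these 30 pairs, 4 were higher and 4 lower in the teriparatide library. The median log2 ratio of all genes past the minimum was -0.10 in OB-like, -0.14 in preOB-like, -0.20 in COP-like and -0.08 in MALP-like cells. After each class was centred on its own median, 6 pairs were higher and 2 lower, with Tgfb1 and Tgfb3 in OB-like cells added at 0.62 and 0.63 and Ltbp3 in COP-like and Ltbp2 in MALP-like cells lost at -0.41 and -0.52. The share of all genes called after centring was not computed.

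In OB-like cells, 1 of the 6 members past the minimum was higher and 0 lower, against 7.5% and 11.1% of all genes. The one was Ltbp3, from 55.2 CPM (46.1 to 65.5) after vehicle to 96.7 CPM (85.7 to 109) after teriparatide, 1.75-fold higher with a log2 ratio of 0.81 (0.50 to 1.12). Tgfb1 was 1.43-fold higher with a log2 ratio of 0.52 (0.33 to 0.71), and Tgfb3, at 17.7 and 25.5 CPM, 1.44-fold higher with a log2 ratio of 0.53 (-0.04 to 1.11), both short of the size used. Among male cells alone the Tgfb1 ratio was 0.11 (-0.16 to 0.39), against 1.20 (0.79 to 1.59) in female cells. The Tgfb3 ratio was 0.49 (-0.42 to 1.53) in male and 1.44 (0.33 to 2.46) in female cells. Over all OB-like cells Tgfbr1 and Tgfbr2 had log2 ratios of 0.00 (-0.50 to 0.50) and 0.04 (-0.41 to 0.50). Tgfbr3 had 5 and 25 UMIs, too few to be called. The Ltbp3 call was lost without the Mepe-led cluster described below, an alternative chosen after seeing the data, at 0.51. The 4 osteocyte markers summed to 1146 and 3519 CPM in OB-like cells, and their part in these ratios was not tested.

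In preOB-like cells, 1 of the 8 members past the minimum was higher and 1 lower, against 8.57% and 18.2% of all genes. Tgfb1 was 1.56-fold higher in the teriparatide library, with a log2 ratio of 0.64 (0.20 to 1.10). Ltbp2 was lower, with a log2 ratio of -0.97 (-1.76 to -0.20) from 43 and 23 UMIs, of which 1 cell per library held 23.3% and 34.8%. Its log2 ratio turned to 0.45 when the CPM of each cell was averaged and to 1.15 among the 18 and 24 cells of a gate on the markers of each cell, and the same gate left Tgfb1 at 0.45, short of the size used. The markers of neighbouring classes moved with these values. The 5 MALP markers summed to 5590 and 2524 CPM, with 4 of the 5 lower in the teriparatide library, and the 4 OB markers to 10862 and 21919 CPM, with 3 of the 4 higher. Their part in the Tgfb1 and Ltbp2 ratios was not tested.

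In COP-like cells, 1 of the 7 members past the minimum was higher and 1 lower, against 8.27% and 17.1% of all genes. Tgfbr3 had 104 and 940 UMIs and was 2.05-fold higher in the teriparatide library, with a log2 ratio of 1.03 (0.74 to 1.34). Ltbp3 was lower, from 76.2 CPM (64.0 to 90.0) to 49.7 CPM (44.9 to 54.8), with a log2 ratio of -0.62 (-0.90 to -0.33). It fell short of 1.5-fold, at -0.58, in thinned cells and also at -0.58 without the cell with most UMIs of it, and at -0.57 with the gate. Tgfbr2 at -0.47 (-0.67 to -0.27), Tgfb2 at -0.33 (-0.53 to -0.12) and Tgfb1 at -0.33 (-0.61 to -0.03) were all below 0 on the log2 scale beyond counting error but short of 1.5-fold. The Tgfb2 ratio was -0.46 (-0.68 to -0.24) in male and 0.77 (-0.01 to 1.64) in female cells, the latter from 16 and 86 UMIs. Tgfbr2 and Tgfb1 were below 0 in both sexes. The median log2 ratio of all genes in COP-like cells was itself -0.20, and centring on it brought Tgfbr2 to -0.27 and Tgfb1 to -0.12. Markers of other classes moved in these cells too, with the 4 hypertrophic chondrocyte markers at 447 and 1496 CPM, the 4 OB markers at 317 and 890 CPM, the 5 mural markers at 57.4 and 11 CPM and the 7 erythroid markers at 16.0 and 86.3 CPM, and their part in these ratios was not tested.

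In MALP-like cells, 1 of the 9 members past the minimum was higher and 2 lower, against 8.24% and 10.1% of all genes. Tgfb2 was 1.6-fold higher in the teriparatide library, with a log2 ratio of 0.68 (0.18 to 1.18), and Tgfb3 was lower with a log2 ratio of -1.19 (-1.83 to -0.59) from 98 and 30 UMIs. Ltbp2 was lower with a log2 ratio of -0.60 (-0.93 to -0.29). The more abundant Tgfbr3 and Ltbp1 had log2 ratios of 0.26 (0.11 to 0.41) and -0.19 (-0.40 to 0.03). Both pointed apart between the sexes, Tgfbr3 at 0.54 (0.33 to 0.75) in male and -0.45 (-1.02 to 0.07) in female cells. The Ltbp1 ratio was -0.76 (-1.01 to -0.50) in male and 0.93 (0.32 to 1.51) in female cells. The Tgfb2 call was lost, at 0.54, when an unnamed cluster of shallow cells was counted with the MALP-like cells, an alternative also chosen after seeing the data, at 0.45 with the gate and at 0.01 among male cells. The Ltbp2 call was lost in thinned cells at -0.14, without the 5% deepest cells at -0.41 and as a mean over cells at -0.40. The 5 MALP markers summed to 31834 and 26055 CPM in these cells, the 5 mural markers to 190 and 623 CPM and the 7 erythroid markers to 143 and 247 CPM, and their part in these ratios was not tested.

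**Figure D2:**
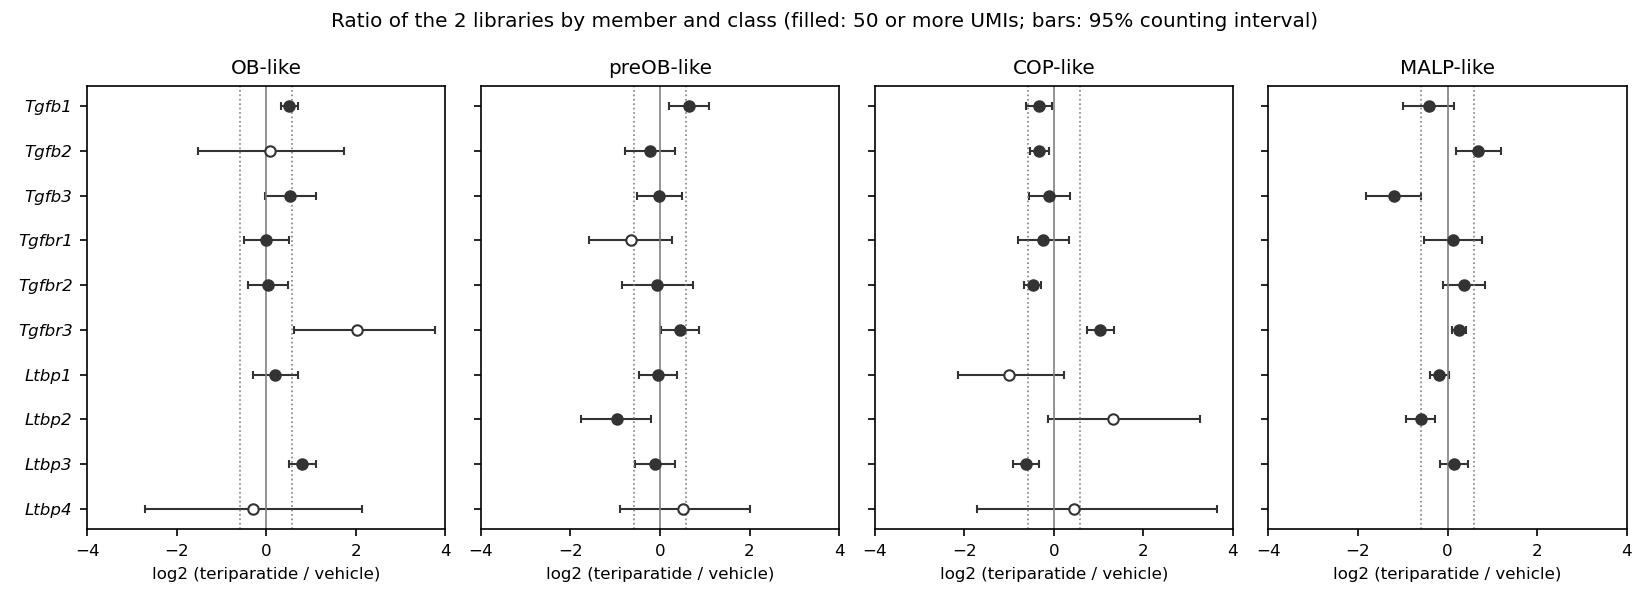
Log2 ratio of the teriparatide over the vehicle library for each member in the 4 classes, with 95% counting intervals as bars, filled points for pairs with at least 50 UMIs and dotted lines at 1.5-fold. Tgfbr3 in COP-like cells at 1.03 and Tgfb3 in MALP-like cells at -1.19 lie farthest from 0 among the filled points, and Ltbp3 lies on opposite sides in OB-like and COP-like cells.

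Within the classes, single clusters differed in their members. The 53 cells of an osteocyte-like cluster led by Mepe and counted as OB-like held the most Tgfb1 and Ltbp3 of the 9 mesenchymal clusters, at 451 and 352 CPM over both libraries, against 168 and 56.6 CPM in the other OB-like cluster. There Tgfb1 was 363 and 483 CPM, a log2 ratio of 0.41 (-0.12 to 0.98), and Ltbp3 255 and 387 CPM, a log2 ratio of 0.60 (-0.03 to 1.28). Ltbp1 was 110 CPM in this cluster and 19.4 CPM in the other. Tgfbr1, at 60.4 CPM (38.3 to 90.6) against 24.3 CPM, was also highest there, though its interval overlapped those of some other clusters. Tgfbr2 was 94.5 against 27.2 CPM and Tgfb3 52.5 against 19.6 CPM. Tgfb2 and Tgfbr3 were 5.25 CPM each in the Mepe-led cluster, from 2 UMIs each, and Ltbp2 and Ltbp4 had 0 UMIs. The Mepe-led cluster held 17 of the 113 vehicle and 36 of the 129 teriparatide OB-like cells.

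The 3 COP-like clusters graded Tgfbr2 from 209 CPM in a cluster led by Cpm and Sfrp5 through 97.2 CPM in a cluster led by Bpifb1 and Stc2 to 45.6 CPM in a cycling cluster led by Top2a. Tgfbr3 followed the same order at 146, 123 and 45.2 CPM and Ltbp3 at 98.0, 45.6 and 18.4 CPM. The CPM of Tgfbr3 was higher after teriparatide in all 3, with log2 ratios of 0.97 (0.54 to 1.42), 1.32 (0.81 to 1.87) and 0.44 (-0.24 to 1.19), the last within counting error. The lower Ltbp3 came from the Cpm-led cluster, at 168 CPM after vehicle and 82.5 CPM after teriparatide with a log2 ratio of -1.02 (-1.37 to -0.67), while the Bpifb1-led cluster had -0.23 (-0.80 to 0.38) and the Top2a-led cluster 1.02 (-0.20 to 2.53).

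Tgfb2 hid a split of this kind. In the Cpm-led cluster it was higher in the teriparatide library, from 70.4 CPM (50.7 to 95.1) to 127 CPM (114 to 141), with a log2 ratio of 0.85 (0.39 to 1.35). In the Bpifb1-led cluster it was lower, from 260 CPM (221 to 303) to 107 CPM (95.3 to 120), with a log2 ratio of -1.28 (-1.56 to -0.99). Among male cells alone the log2 ratios were 0.85 (0.39 to 1.35) and -1.75 (-2.06 to -1.44). One of the 23 vehicle cells of the Bpifb1-led cluster held 21.9% of its 160 Tgfb2 UMIs, and the thinned shares of cells with a Tgfb2 UMI there, 31.8% (13.9 to 54.9) and 27.3% (18.8 to 37.1), overlapped. Without thinning the shares were 69.6% and 79.0%. In the Cpm-led cluster, 1 of the 25 vehicle cells held 26.2% of its 42 Tgfb2 UMIs. The thinned shares of that cluster, 12% (2.55 to 31.2) and 25.5% (17.2 to 35.3), overlapped too. Its shares without thinning were 52% and 75%.

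Hypertrophic chondrocyte-like cells, 5 and 19 in number, held Tgfb1 at 154 CPM, Tgfb2 at 101 CPM and Tgfb3 at 82.2 CPM over both libraries and had 0 UMIs of Ltbp2 and Ltbp4. The unnamed shallow cluster of 54 and 58 cells, with a median of 2544 UMIs, held Ltbp2 at 149 CPM (110 to 196) and Ltbp3 at 175 CPM. MALP-like cells held Ltbp2 at 137 CPM (124 to 152) over both libraries. In the shallow cluster Ltbp2 came to 222 CPM (160 to 301) from 42 and 54.3 CPM (23.4 to 107) from 8 UMIs. Leading genes of this cluster included Ltbp2 and mixed Fabp4 and Cfb with the neutrophil genes S100a8 and S100a9 and the globins Hba-a1 and Hbb-bs. MALP markers summed to 22828 and 6233 CPM in it, and OB markers to 53339 and 78277 CPM. The part of these markers in its Ltbp2 values was not tested.

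**Figure D3:**
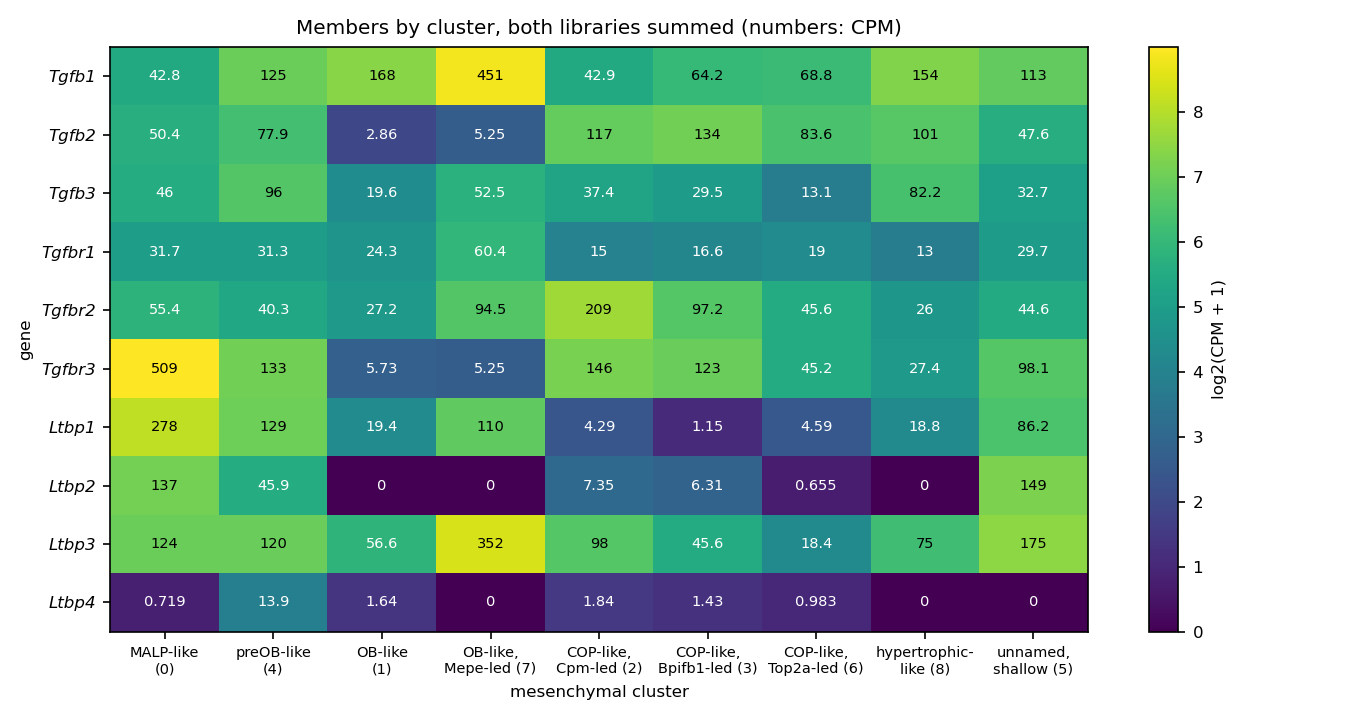
Members by mesenchymal cluster over both libraries, with colour for log2(CPM + 1) and the CPM printed in each field, cluster numbers in parentheses. Tgfb1 and Ltbp3 are highest in the Mepe-led OB-like cluster at 451 and 352 CPM, Tgfbr3 and Ltbp1 in MALP-like cells at 509 and 278 CPM, and Tgfbr2 in the Cpm-led COP-like cluster at 209 CPM.

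The blood cells removed from the classes carried 1 ligand and the signaling receptors. Of the UMIs in cells that passed the limits, mesenchymal cells held 83.7% and 63.6% of Tgfb1, 87.6% and 61.7% of Tgfbr1, and 94.6% and 91.5% of Tgfbr2. For the other 7 members they held at least 96.1% in each library. Mesenchymal cells were 423 of the 549 and 603 of the 1217 cells that passed, so fewer of the teriparatide cells were mesenchymal. Their share of all UMIs was not computed, so the Tgfb1 and Tgfbr1 shares and their fall are not read as particular to these genes. A cluster positive for Ptprc with mixed leading genes (Ccl5, Gzma, Prss34 and Cpa3) had 210 CPM (159 to 273) and 194 CPM (176 to 214) of Tgfb1, a level near that of OB-like cells, and B cell-like cells, 11 and 34 in number, had 317 CPM (199 to 480) and 154 CPM (99.7 to 227). Macrophage-like cells, 10 and 16 in number, had 515 CPM (140 to 1318) and 340 CPM (147 to 670) from only 4 and 8 UMIs. Their Tgfbr2 was 129 and 127 CPM from 1 and 3 UMIs. Granulocyte-monocyte progenitor-like cells held 109 CPM (66.8 to 169) and 70.5 CPM (58.7 to 84.0), neutrophil-like cells 36.8 CPM (10.0 to 94.2) and 44.1 CPM (35.3 to 54.3) and erythroid-like cells 38.0 CPM (22.9 to 59.3) and 40.6 CPM (32.2 to 50.6) of Tgfb1. MALP-like cells, at 47.7 and 35.9 CPM, did not differ from the last 2 beyond counting error. Tgfbr1 in the mixed cluster was 45 CPM (23.3 to 78.6) and 38.5 CPM (30.6 to 47.8), the latter above the 16.3 CPM (13.6 to 19.3) of COP-like cells beyond counting error. Erythroid-like cells had 0 and 6 UMIs of Tgfbr1 and 0 and 2 UMIs of Tgfbr2.

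**Figure D4:**
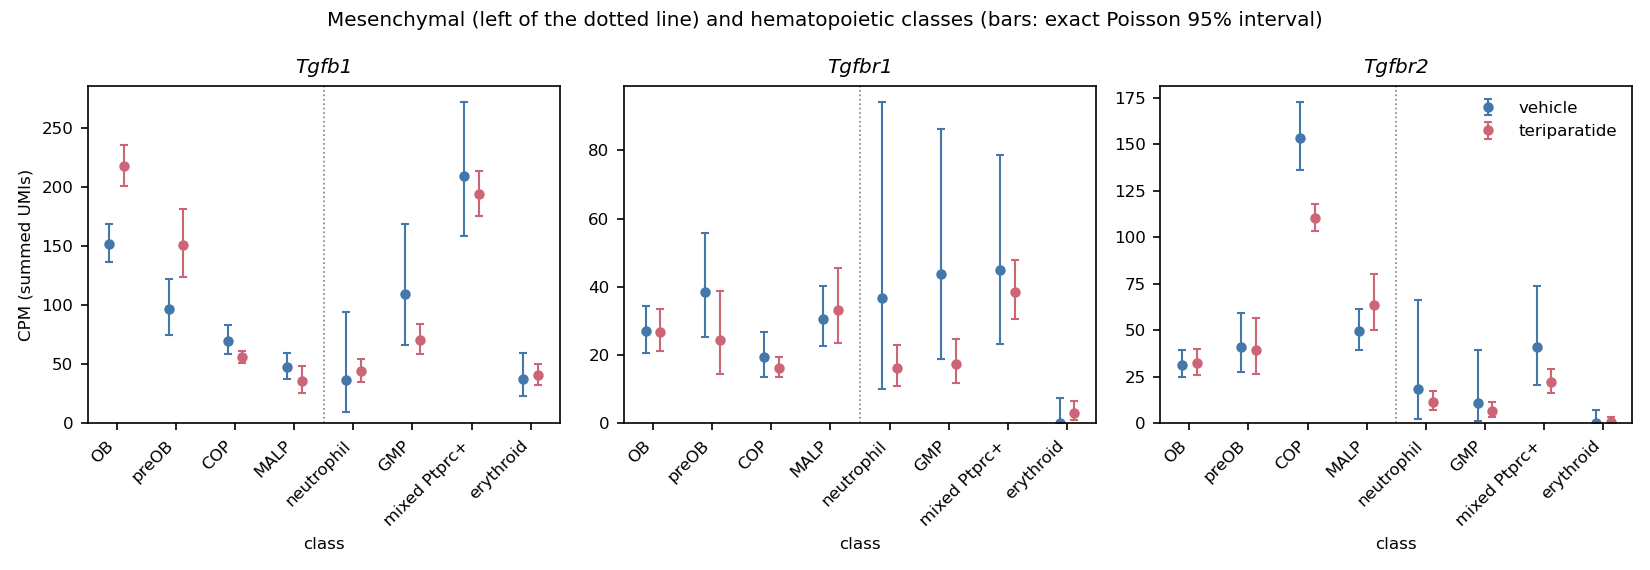
CPM of Tgfb1, Tgfbr1 and Tgfbr2 in the 4 mesenchymal classes and in 4 hematopoietic classes, with exact Poisson 95% intervals as bars (GMP, granulocyte-monocyte progenitor-like). Tgfb1 is as high in the mixed Ptprc+ cells, at 210 and 194 CPM, as in OB-like cells, while Tgfbr2 is highest in COP-like cells among the classes shown.

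Since sex and treatment moved together, the 8 called pairs were also compared within cells of 1 sex. Female cells numbered 62 and 9 in OB-like, 22 and 6 in preOB-like, 11 and 25 in COP-like and 66 and 7 in MALP-like cells. Their ratios thus rest on few cells. Of the cells with a sex call, 38% and 91.7% were male in OB-like and 54.2% and 85.7% in preOB-like cells. In COP-like cells 82.5% and 90.1% were male, the smallest shift, and in MALP-like cells 43.6% and 89.9%. In 5 of the 8 pairs both sexes pointed the same way as all cells. In male cells 6 of the 8 were past 1.5-fold by size alone, without the minimum of 50 UMIs. In the teriparatide library male cells were 100 of 129 OB-like, 36 of 53 preOB-like, 228 of 264 COP-like and 62 of 80 MALP-like cells. The pairs were picked in all cells, so agreement of male cells with all cells is partly built in. The same share for all called genes was not computed. Tgfb1 in preOB-like cells had log2 ratios in male and female cells of 0.86 (0.22 to 1.56) and 0.84 (-0.24 to 1.87), Ltbp3 in COP-like cells of -0.67 (-0.97 to -0.36) and -0.51 (-1.34 to 0.38), and Tgfb3 in MALP-like cells of -1.13 (-1.92 to -0.38) and -0.34 (-2.27 to 1.11). The Ltbp3 ratio in OB-like cells was 0.28 (-0.16 to 0.75) for male cells, against 1.85 (1.22 to 2.47) for female cells. Tgfb2 in MALP-like cells had 50.4 and 50.8 CPM in male cells of the 2 libraries, a log2 ratio of 0.01 (-0.63 to 0.67), while it was 1.36 (-0.09 to 2.59) in female cells.

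The other 3 pairs pointed apart between the sexes. Tgfbr3 in COP-like cells was 1.18 (0.86 to 1.53) in male and -0.70 (-1.59 to 0.24) in female cells, the latter from 17 and 33 UMIs. Ltbp2 in MALP-like cells was -1.06 (-1.46 to -0.67) in male cells but 1.06 (0.26 to 1.79) in female cells. In preOB-like cells the Ltbp2 ratio was -2.07 (-3.38 to -0.88) in male cells, from 21 and 9 UMIs, fewer than the minimum of 50. It was 0.24 (-1.16 to 1.5) in female cells, from 19 and 8 UMIs. Whether sex changes the ratio was not tested, since each condition had 1 library.

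**Figure D5:**
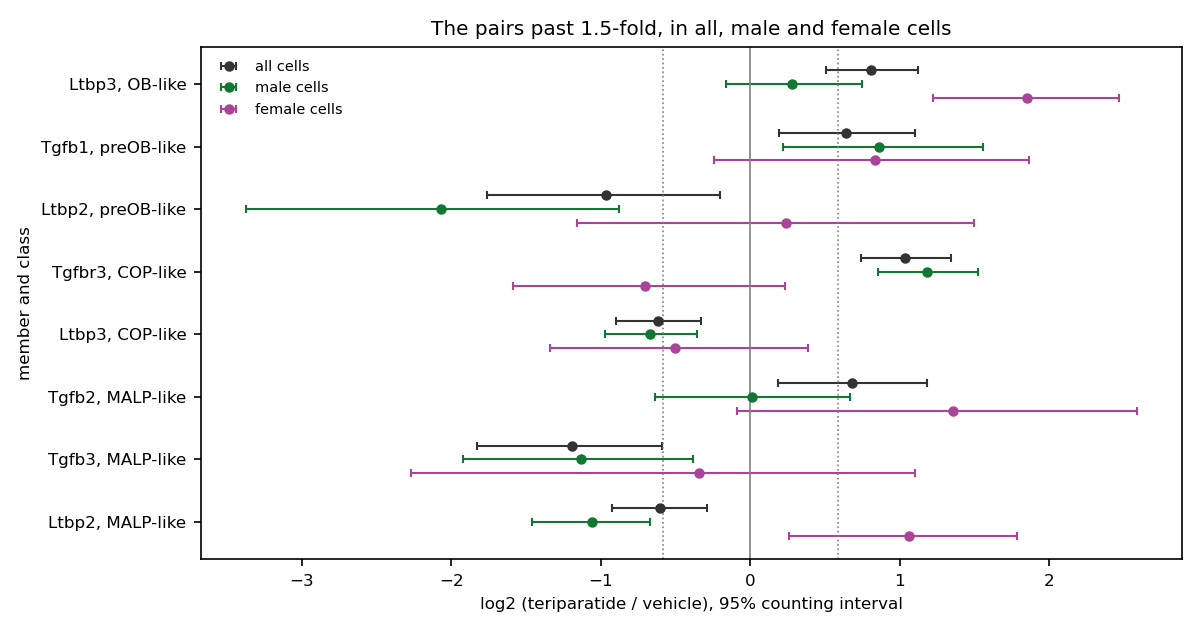
Log2 ratio of the teriparatide over the vehicle library for the 8 pairs past 1.5-fold, in all, male and female cells, with 95% counting intervals as bars and dotted lines at 1.5-fold. Male cells, which are part of all cells, follow the sign of all cells in all 8 pairs, with Tgfb2 in MALP-like cells at 0.01. Female cells lie on the other side for Tgfbr3 in COP-like cells and for Ltbp2 in both of its classes.

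Both signaling receptors were found in a minority of the cells of each class. A UMI of Tgfbr1 and of Tgfbr2 was found together in 36.4% (24.9 to 49.1) and 31.8% (26.2 to 37.8) of COP-like cells, and in 9.43% to 22.5% of the cells of the other classes. The COP-like cells were also the deepest, with medians of 28719 and 30923 UMIs. After thinning to 3400 UMIs the shares were at most 3.08% in every class and library, against 0% in erythroid-like cells, so no order of the classes could be read. Tgfb1 and Ltbp3, a ligand and its binder, were found together in 60.2% (50.5 to 69.3) and 67.4% (58.6 to 75.4) of OB-like cells. After thinning the shares were 11.9% (6.51 to 19.5) and 22.6% (15.6 to 31.0). Before thinning the pair was found in 36.7% and 54.7% of preOB-like, 39.4% and 44.7% of COP-like and 33.6% and 30% of MALP-like cells. In OB-like cells Tgfb1 was found in 83.2% and 89.9% and Ltbp3 in 66.4% and 73.6%. Whether the pair exceeds what these shares give was not tested. In erythroid-like cells the pair was found in 1.96% and 1.19% of cells and after thinning in 0%.

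The wider pathway was followed through 46 genes in 4 lists, all of which were in the tables. Their counts stand beside the shares of all genes given above, 7.5% higher and 11.1% lower in OB-like, 8.57% and 18.2% in preOB-like, 8.27% and 17.1% in COP-like and 8.24% and 10.1% in MALP-like cells, and with so few genes per list nothing is read from them. Of 8 other receptors and co-receptors, 2 to 5 passed the minimum in a class, and the 1 call was Bambi, a pseudoreceptor that blocks signaling, which was lower in preOB-like cells, from 137 to 43.6 CPM, with a log2 ratio of -1.65 (-2.27 to -1.06). Bambi was highest in OB-like cells, at 666 and 473 CPM with a log2 ratio of -0.50 (-0.60 to -0.39), and its log2 ratio in COP-like cells, 0.56 (0.23 to 0.91), was among the 2 highest of this list. The other was the activin receptor Acvr2a in MALP-like cells, at 0.52 (0.00 to 1.04).

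Of 12 SMADs and their regulators, 10 passed in OB-like cells with 2 higher and 0 lower, 7 in preOB-like cells with 0 and 1, 11 in COP-like cells with 1 and 3, and 10 in MALP-like cells with 3 and 1. The co-repressor Ski was higher in OB-like and MALP-like cells with log2 ratios of 0.66 (0.25 to 1.07) and 0.84 (0.53 to 1.14). Strap, a partner of Smad7 at the receptor, was lower in preOB-like, COP-like and MALP-like cells at -0.68, -0.92 and -0.79. Skil, a relative of Ski, was lower in COP-like cells at -0.83 (-1.04 to -0.62), the ubiquitin ligase Smurf2 was higher in OB-like cells at 1.02 (0.52 to 1.54), and the inhibitory Smad6 was higher in MALP-like cells at 1.02 (0.33 to 1.73).

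Of 16 genes that anchor or activate the latent complex, 11, 11, 11 and 12 passed in the classes in the order OB, preOB, COP and MALP, with 3, 4, 0 and 4 higher and 1, 1, 4 and 0 lower. Their median log2 ratios were 0.29, 0.17, -0.34 and 0.55, against the medians of all genes given above. Fibronectin (Fn1), on which the matrix deposition of latent complexes depends, was higher after teriparatide at 1.27 in OB-like, 1.30 in preOB-like and 1.72 in MALP-like cells, and it was -0.11 in COP-like cells, where it was most abundant at 4922 and 4574 CPM. Thbs1, or thrombospondin 1, which can activate latent ligand, was higher in preOB-like and MALP-like cells at 0.70 and 1.74. The integrin chain Itgb5 was higher at 0.99 in OB-like, 0.76 in preOB-like and 0.94 in MALP-like cells, and Itgb3 in OB-like and MALP-like cells at 1.12 and 0.69. The fibrillin Fbn2 was lower in OB-like and preOB-like cells at -0.90 and -2.05, and Fbn1 was lower in COP-like cells at -2.14 (-2.47 to -1.82).

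Of 10 genes that TGF-beta is known to induce, 8, 6, 9 and 8 passed in the 4 classes in the same order, with 2, 1, 1 and 2 higher and 3, 2, 2 and 2 lower, and median log2 ratios of -0.41, -0.50, 0.01 and -0.21, against -0.10, -0.14, -0.20 and -0.08 for all genes. Ctgf was higher in OB-like, preOB-like and COP-like cells at 0.64, 0.88 and 0.73. Tgfbi, a matrix protein named for its induction, was lower in preOB-like, COP-like and MALP-like cells at -1.54, -1.37 and -1.24, and the transcription factor gene Junb was lower at -1.01 in OB-like, -0.62 in preOB-like and -0.94 in MALP-like cells. Pmepa1, a feedback inhibitor, was lower in COP-like cells at -1.62 (-1.76 to -1.47). Timp1, an inhibitor of matrix metalloproteinases, was higher in OB-like cells at 1.35 (1.23 to 1.46).

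The genes most like each member were sought among 6280 genes with at least 500 UMIs by Pearson correlation of log2(CPM + 1) over 23 points, each a class in a library. The points share libraries and depth and include blood cells, so a high value mainly separates mesenchymal from blood cells, and the values are a description. Tgfb2 was most like Ndn (r = 0.987), Fgfr3 (0.973) and Cox4i2 (0.972), and Tgfb3 most like Rhobtb3 (0.986), Parva (0.984) and Jam3 (0.984). Ltbp2 was most like Adipoq (0.971), the adiponectin gene and a MALP marker, C1s1 (0.969) and Fbln5 (0.969). Ltbp1 was most like Sfrp4 (0.967) and Rbms3 (0.965), and Tgfbr3 most like Plxdc2 (0.952), Igfbp7 (0.951) and Synpo (0.951). Ltbp3 came closest to Sdc2 (0.975), Ptrf (0.974) and Cttn (0.971). The remaining members had looser neighbours, with Map7d1 (0.937), Mvp (0.936) and Mlxip (0.93) for Tgfbr1, Saraf (0.910), Sdf2 (0.898) and Fndc3a (0.877) for Tgfbr2 and Clta (0.845), Atp5e (0.8) and Mien1 (0.785) for Tgfb1. Ltbp4, with its few counts, was closest to the preOB markers Aspn (0.872) and Postn (0.849) and to Rgs5 (0.857).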

How the data were processed

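Gene by barcode UMI counts were deposited for both libraries, made by the authors with Cell Ranger 2.1.0 on mm10 per the submitters' notes, while the matrix header names version 3.1.0. Gene positions are GENCODE vM21 on GRCm38, while the promoter stretches and their starts are RefSeq on GRCm38.p6. Cells with 200 to 6000 genes and at most 10% mitochondrial UMIs were kept, the limits of the study, with no doublet caller. Canonical correlation in Seurat 5.3.0 (R 4.3.3) aligned the libraries, and cells were clustered on 20 components at resolution 0.6. Clusters with blood markers, or with Ptprc in more than 33.3% of cells, were removed, along with 1 and 3 further cells with Ptprc, and the rest were clustered again and named from markers. UMIs were summed by class and library (Python 3.11.15, scipy 1.17.1), with exact Poisson intervals for CPM, Clopper-Pearson intervals for shares and conditional binomial intervals for ratios. These cover counting error only. The code was tested on simulated data. Sex was called from Ddx3y, Eif2s3y, Uty and Kdm5d against Xist. The alternatives were 12 planned and 2 added settings. Named genes were all members, pathway genes past 1.5-fold the same way in at least 2 classes, the 2 highest and 2 lowest ratios of each list, and the 3 nearest genes per member. A few genes that these rules or an overlap would name are not reported here. Members and lists were chosen with earlier results of these data known. Whether the mice of a condition were pooled is not stated, and cells of 1 library are not replicates. Class names are rebuilt here and are not the annotation of the study, so values can differ from it for that reason.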

Additional observations from a re-analysis of the deposited data

Results flagged for a closer look

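Ltbp3 was flagged because its classes pointed opposite ways, with a log2 ratio of 0.81 in OB-like and -0.62 in COP-like cells, each past 1.5-fold and with intervals on opposite sides of 0. Tgfb2 was flagged within the COP-like class, at 0.85 in the Cpm-led cluster 2 and -1.28 in the Bpifb1-led cluster 3. The other results were flagged because male and female cells pointed opposite ways. Tgfbr2 in OB-like cells had log2 ratios of -0.91 (-1.54 to -0.26) in male cells, from 34 and 62 UMIs, and 1.96 (1.16 to 2.73) in female cells, from 39 and 24 UMIs. Ltbp1 in MALP-like cells had -0.76 (-1.01 to -0.50) in male cells, at 404 and 239 CPM, and 0.93 (0.32 to 1.51) in female cells, at 195 and 372 CPM. Ltbp2 in MALP-like cells had -1.06 in male and 1.06 in female cells. None of these differences was tested, since there was 1 library per condition, and the female cells of the teriparatide library were 9 in OB-like and 7 in MALP-like cells.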

How the results depend on the processing

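The 30 log2 ratios past the minimum were recomputed under 14 alternatives, of which 2 were chosen after seeing the data. Of these values, 382 stayed within the counting interval of the reported ratio, 33 left it without turning a call, and 5 turned a called ratio. Changing the minimum of UMIs cannot change a ratio. Leaving out the Mepe-led cluster changes only OB-like ratios, and adding the shallow cluster changes only MALP-like ratios. Part of the 382 thus stayed by construction. Ltbp2 in preOB-like cells turned to 1.15 with a gate on the markers of each cell, 0.24 in female cells and 0.45 as a mean of the CPM of each cell. In female cells Tgfbr3 in COP-like cells turned to -0.70 and Ltbp2 in MALP-like cells to 1.06. The share of all genes called under an alternative was not computed, so the counts of pairs that follow are a description. The count of higher pairs, 4 as reported, was 2 in male and 8 in female cells, and 2 and 1 of these were among the reported 4. In thinned cells it was 5, of which 2 were. Of the lower pairs, 3 of the 5 in male and 0 of the 3 in female cells were among the reported 4. The count of lower pairs, 4 as reported, was 1 in thinned cells, a pair that was not among the 4, and 2 with median centring, with the mean of the CPM of each cell, and without the cell with most UMIs of a member. Tgfb3 in thinned MALP-like cells was still past 1.5-fold, at -1.5, but was not called. Thinning lowers the UMIs that are set against the minimum of 50. The number of members with the same highest class, 7 as reported, ranged from 6 in thinned cells to 9 with the gate. Tgfbr3 in COP-like cells was above 0 in every alternative except female cells, and Ltbp3 in OB-like cells in every alternative, with its lowest ratio of 0.28 in male cells. No paired analysis was possible because each condition had 1 library. Depth limits Ltbp4 in every class and Tgfb2, Tgfbr3 and Ltbp2 in OB-like cells. It also limits Tgfbr1 in preOB-like cells and Ltbp1 and Ltbp2 in COP-like cells. All these pairs had under 50 UMIs.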
